A study of Mus musculus with 14 samples.

Results

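AdipoqTraced cells were set against CD26 cells, both sorted by flow cytometry from the dermis of the mouse wound bed 5 days after injury. The comparison rests on the 4 libraries whose titles carry these names, 2 AdipoqTraced and 2 CD26, out of 14 libraries in 7 groups, and every gene of their table entered it. All 4 came from male C57/BL6 mice aged 7 weeks. The AdipoqTraced libraries are described as GFP, and the sources used here name no Cre driver, reporter allele, inducing agent or sort gate for either group. The other 10 libraries are mature adipocytes from the same deposit and 4 populations taken over from an earlier series. The title of the study concerns adipocytes of the skin and the cells that derive from them after injury.

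Adipoq encodes adiponectin, a hormone of mature fat cells, and a tracer tied to its promoter marks cells in which that promoter has been active together with their descendants. CD26 is dipeptidyl peptidase 4, a surface enzyme made from Dpp4, which marks fibroblasts of the dermis and fascia and the interstitial progenitors of fat depots in the mouse. In the days after wounding, fibroblasts enter the wound bed, lay down collagen and in part become myofibroblasts, which pull the wound together with actin filaments rich in smooth muscle actin.

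Total counts were 14124860 and 13760557 in the AdipoqTraced libraries, against 18257752 and 17281979 in the CD26 libraries. Transcripts of the mitochondrial genome took 18.45% and 26.74% of them in AdipoqTraced, against 35.45% and 38.77% in CD26. Levels are therefore given as CPM, the counts of a gene relative to all counts outside the mitochondrial genome after scaling to a common library size by the TMM method of edgeR. Nuclear ribosomal RNA made up 10.07% and 4.584% of the counts outside the mitochondrial genome in AdipoqTraced, against 2.482% and 2.239% in CD26. The AdipoqTraced pair was also less alike, with a correlation of log2 CPM over genes of 0.768 against 0.84 for the CD26 pair. Between the groups the correlation ran from 0.715 to 0.796. AdipoqTraced replicate 2 was more like CD26 replicate 1 (0.796) than like AdipoqTraced replicate 1. Nothing in the labels shows whether the 2 libraries of a group stem from different animals, and the p-values cover only the spread between these libraries, which may be technical. In sorted bulk samples, fewer cells of a type and less RNA per cell cannot be told apart.

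The first observation concerns the number of genes that passed the test. Of 14978 genes tested, 96 were called, meaning an adjusted p under 0.05 in edgeR's quasi-likelihood test with Benjamini-Hochberg adjustment, which is 0.641% of all genes. Of these, 44 were higher in AdipoqTraced (0.294%) and 52 were lower (0.347%). The smallest called difference was 1.04 on the log2 scale and the median 2.04. In each of the 96, both AdipoqTraced libraries lay on the same side of both CD26 libraries, an order that 22.4% of all tested genes showed upward and 24.5% downward. When the spread was estimated from all 14 libraries, 705 of 18678 genes were called (3.77%), 433 higher (2.32%) and 272 lower (1.46%). Of the 96, 92 were among them and none changed direction, but the fold changes of that fit rest on the same 4 libraries. The coefficient of variation between the libraries of a group was 0.888 in AdipoqTraced and 0.659 in CD26. It was 0.758 in mature adipocytes and 0.515 to 0.632 in the 4 populations of the earlier series. Calls made only with all 14 libraries thus rest in part on groups that vary less, and are less strict. Without either CD26 library, in fits that assume the lone sample to vary like the other group, edgeR called 0 genes, with 1104 and 719 genes at an unadjusted p under 0.05. The sign of all 96 differences was the same in the 4 fits that left out 1 library each. The order of the libraries given above all but fixes that result. The fold moved by over 1.5 times in at least 1 of these fits in 24 of the 96.

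**Figure D1:**
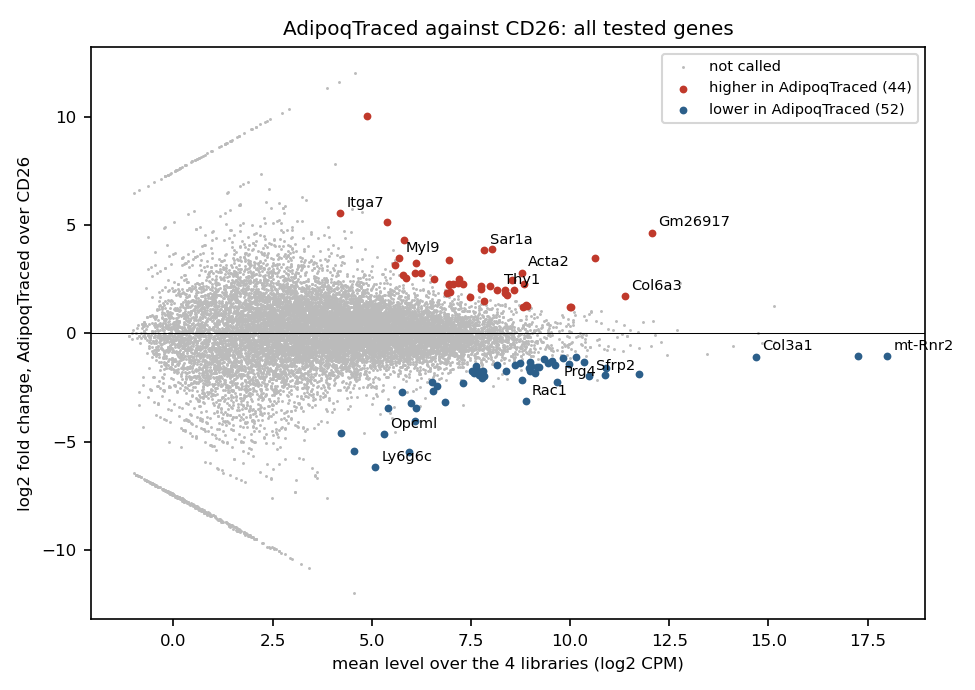
Each point is 1 of 14978 genes, with the mean level over the 4 libraries (log2 CPM) across and the log2 fold change of AdipoqTraced over CD26 up the page. The 44 genes called higher in AdipoqTraced are red, the 52 called lower are blue, and the straight lines of grey points at the edges are genes at 0 in one group.

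Of the genes behind the sort labels, Dpp4 had 56.0 and 62.5 CPM in AdipoqTraced, against 185 and 198 CPM in CD26. The groups did not overlap, but the difference of -1.69 on the log2 scale (SE 0.32) had an adjusted p of 0.0533 in edgeR with these 4 libraries and 0.0118 with all 14. Adipoq itself was detected at 21.7 and 3.65 CPM in AdipoqTraced, against 0.169 and 0.587 CPM in CD26, with an adjusted p of 0.225. The AdipoqTraced pair was itself far apart in this transcript. In the mature adipocyte libraries, Adipoq stood at 1432 and 984 CPM. Plin1, which coats lipid droplets, had 15.5 and 6.85 CPM in AdipoqTraced, against 0.677 and 0.684 CPM in CD26, with an adjusted p of 0.191 that became 0.0423 with all 14 libraries. None of the 16 tested genes of adipocyte identity was called with 4 libraries, and Plin1 and Dgat1 were called higher with all 14. Lep, Cidea, Slc2a4, Adrb3 and Adcy10 of that list had no count in any of the 4 libraries, and its summed level was 431 and 278 CPM in AdipoqTraced, against 122 and 176 CPM in CD26.

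Of other surface markers used to sort stromal cells, Pdgfra, Cd34, Ly6a, Itgb1 and Cd9 did not pass the test. Pdgfra, the receptor that marks fibroblasts and adipocyte progenitors, had 403 and 407 CPM in AdipoqTraced, against 369 and 355 CPM in CD26, with an adjusted p of 0.753. Cd34 had 184 and 99.9 CPM in AdipoqTraced, against 162 and 242 CPM in CD26, and the groups overlapped. Ly6a, which encodes Sca-1, gave an adjusted p of 0.677, Itgb1, which encodes CD29, gave 0.398, and Cd9 gave 0.942. The libraries of Pdgfra, Ly6a and Itgb1 did not overlap between the groups, and those of Cd9 did. Thy1, the surface glycoprotein of fibroblasts known as CD90, was the exception. It had 499 and 420 CPM in AdipoqTraced, against 112 and 116 CPM in CD26, a log2 fold change of 2.01 (SE 0.26, adjusted p = 0.0182). Thy1 was the 1 member called among 20 fibroblast surface receptors, whose median log2 fold change was -0.17.

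Of the contractile genes, 5 were called, all of them higher in AdipoqTraced. Acta2, smooth muscle actin (chromosome 19, 34241090 to 34255590, mm10), had 858 and 689 CPM in AdipoqTraced, against 105 and 116 CPM in CD26. That is a log2 fold change of 2.81 (SE 0.25), or means of 774 ± 119 and 111 ± 7.81 CPM (SD, n = 2 each), with an adjusted p of 0.00219. Myl9, a regulatory light chain of myosin, had 101 and 89.4 CPM in AdipoqTraced, against 12.4 and 4.2 CPM in CD26, a log2 fold change of 3.48 (SE 0.56, adjusted p = 0.0385) that became 4.50 without CD26 replicate 1. Csrp1, a LIM protein bound to actin fibres, had 467 and 361 CPM in AdipoqTraced, against 88.1 and 93.1 CPM in CD26. Cnn2, a calponin, had 207 and 270.3 CPM in AdipoqTraced, against 38.1 and 58.4 CPM in CD26. Tpm1, a tropomyosin that lines the actin filament, had 644 and 712 CPM in AdipoqTraced, against 271 and 277 CPM in CD26. In all 5 the lower AdipoqTraced library stood above the higher CD26 library, and log2 fold changes ran up to 3.48 and down to 1.3 for Tpm1. In the other populations of the series, scaled over all 14 libraries, Acta2 had 1845 and 2129 CPM in CD29 cells, 672 and 584 CPM in DN cells and 105 and 99.3 CPM in AP_CD9Low cells.

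Of 30 tested genes of the actin and smooth muscle contractile list, 5 were called higher and 0 lower, against 0.294% and 0.347% over all genes. Of the 30, 23 stood above both CD26 libraries in both AdipoqTraced libraries, as did 22.4% of all tested genes. The median log2 fold change was 1.26, against 0.01 over all genes. With all 14 libraries 13 of 32 were called higher and 0 lower, against 2.32% higher over all genes. Those added were Actg1, Tagln, Cnn3, Myh9, Myl6, Smtn, Actn1 and Flna, named after their values were seen. Flna, which cross-links actin, had 781 and 652 CPM in AdipoqTraced, against 308 and 324 CPM in CD26 (adjusted p = 0.0526 in edgeR with 4 libraries). Of 23 targets and regulators of the factors SRF, MRTF and YAP, which control many contractile genes, edgeR called 0 with 4 libraries and 3 of 26 higher with all 14, and their median log2 fold change was 0.07.

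The promoters of the contractile genes are shown because SRF binds the CArG box, a short motif of a pair of C bases, an A- and T-rich core and a pair of G bases. The sequences are RefSeq promoters of GRCm38.p6, from 250 bases before to 50 after the gene's start, written 5′ to 3′ on the gene's strand. Capitals mark each CArG box with up to 1 mismatch in the core, searched on both strands. Acta2 lies at chr19:34255324-34255623 on the minus strand, Myl9 at chr2:156775214-156775513 on the plus strand, Cnn2 at chr10:79988350-79988649 on the plus strand, and the first of the Csrp1 promoters at chr1:135728917-135729216 on the plus strand.
Acta2: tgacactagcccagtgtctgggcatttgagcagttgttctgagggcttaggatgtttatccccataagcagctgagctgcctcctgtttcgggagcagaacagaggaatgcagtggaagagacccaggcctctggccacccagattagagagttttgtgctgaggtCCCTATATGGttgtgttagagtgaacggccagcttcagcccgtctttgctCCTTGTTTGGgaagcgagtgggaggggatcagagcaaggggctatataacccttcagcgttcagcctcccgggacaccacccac
Myl9: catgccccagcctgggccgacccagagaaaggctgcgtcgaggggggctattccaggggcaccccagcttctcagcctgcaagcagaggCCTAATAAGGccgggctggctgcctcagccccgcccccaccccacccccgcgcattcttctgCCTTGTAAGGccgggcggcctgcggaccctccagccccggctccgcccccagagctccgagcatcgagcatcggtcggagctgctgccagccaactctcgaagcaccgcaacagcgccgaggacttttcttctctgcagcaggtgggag
Cnn2: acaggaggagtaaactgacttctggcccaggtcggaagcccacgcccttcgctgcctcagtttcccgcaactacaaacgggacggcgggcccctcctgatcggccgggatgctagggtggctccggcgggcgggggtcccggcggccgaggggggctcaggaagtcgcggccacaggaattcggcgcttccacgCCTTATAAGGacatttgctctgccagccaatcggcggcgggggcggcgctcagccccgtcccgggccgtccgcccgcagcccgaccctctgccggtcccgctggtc
Csrp1: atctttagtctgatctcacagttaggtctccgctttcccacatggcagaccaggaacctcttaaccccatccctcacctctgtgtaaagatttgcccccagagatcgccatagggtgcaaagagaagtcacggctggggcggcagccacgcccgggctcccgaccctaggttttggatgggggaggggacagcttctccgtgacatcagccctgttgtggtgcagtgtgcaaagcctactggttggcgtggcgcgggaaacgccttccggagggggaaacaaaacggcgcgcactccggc
The Acta2 promoter held 2 boxes with 1 mismatch each, starting at -84 and -34 from the gene's start. The Myl9 promoter held 2, of which 1 was exact, the Cnn2 promoter held 1 exact box, and neither promoter of Csrp1 nor that of Tpm1 held one. Of 28 contractile genes with a promoter in the table, 9 held a box at this tolerance (32.14%), against 11.29% of 27025 genes and 9.98% of 32851 promoters. Among genes called higher in AdipoqTraced 6 of 30 held one, and among genes called lower 4 of 36. A match of letters is a description and shows no binding.

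Genes of cell adhesion and the cytoskeleton were split. Itga7, an integrin chain that binds laminin, had 37.0 and 35.5 CPM in AdipoqTraced, against 1.27 and 0.196 CPM in CD26, with an adjusted p of 0.0411. Its log2 fold change of 5.54 (SE 1.0) became 7.45 without CD26 replicate 1 and 4.82 without CD26 replicate 2. Itga7 also stood at 40.8 and 78.2 CPM in the mature adipocyte libraries and at 18.1 and 31.0 CPM in CD29 cells. Ilk, the integrin-linked kinase, had 214 and 109.9 CPM in AdipoqTraced, against 34.7 and 21.6 CPM in CD26, a log2 fold change of 2.51 (SE 0.46, adjusted p = 0.0496) that was 1.93 without AdipoqTraced replicate 1, and 76.7% of its exons overlap Taf10. Mcam, an adhesion molecule of pericytes and endothelium, had 179 and 84.9 CPM in AdipoqTraced, against 17.1 and 21.3 CPM in CD26, and its log2 fold change of 2.78 was 2.12 without AdipoqTraced replicate 1. Tubb5, a beta-tubulin, had 596 and 656 CPM in AdipoqTraced, against 263 and 271 CPM in CD26 (log2 fold change 1.23, adjusted p = 0.0478). Tmsb10, a thymosin that binds actin monomers, had 414 and 294 CPM in AdipoqTraced, against 73.2 and 82.7 CPM in CD26 (log2 fold change 2.19, adjusted p = 0.0237).

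In the opposite direction, Rock1, a kinase that raises myosin activity, had 89.4 and 84.0 CPM in AdipoqTraced, against 318 and 346 CPM in CD26 (log2 fold change -1.94, SE 0.27, adjusted p = 0.0252). Rac1, a small GTPase of the cell's leading edge, had 93.3 and 99.9 CPM in AdipoqTraced, against 821 and 877 CPM in CD26. Its log2 fold change of -3.14 (SE 0.24) had the smallest adjusted p of the genes called lower, 0.000842. Rac1 levels also differed among the other populations, from 147 and 174 CPM in AP_CD9Low to 640 and 706 CPM in mature adipocytes, and 51.4% of its exons overlap Daglb, so its counts are uncertain. Marcks, a membrane protein that binds actin, had 237 and 360.2 CPM in AdipoqTraced, against 788 and 986 CPM in CD26 (log2 fold change -1.57, adjusted p = 0.0411).

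**Figure D2:**
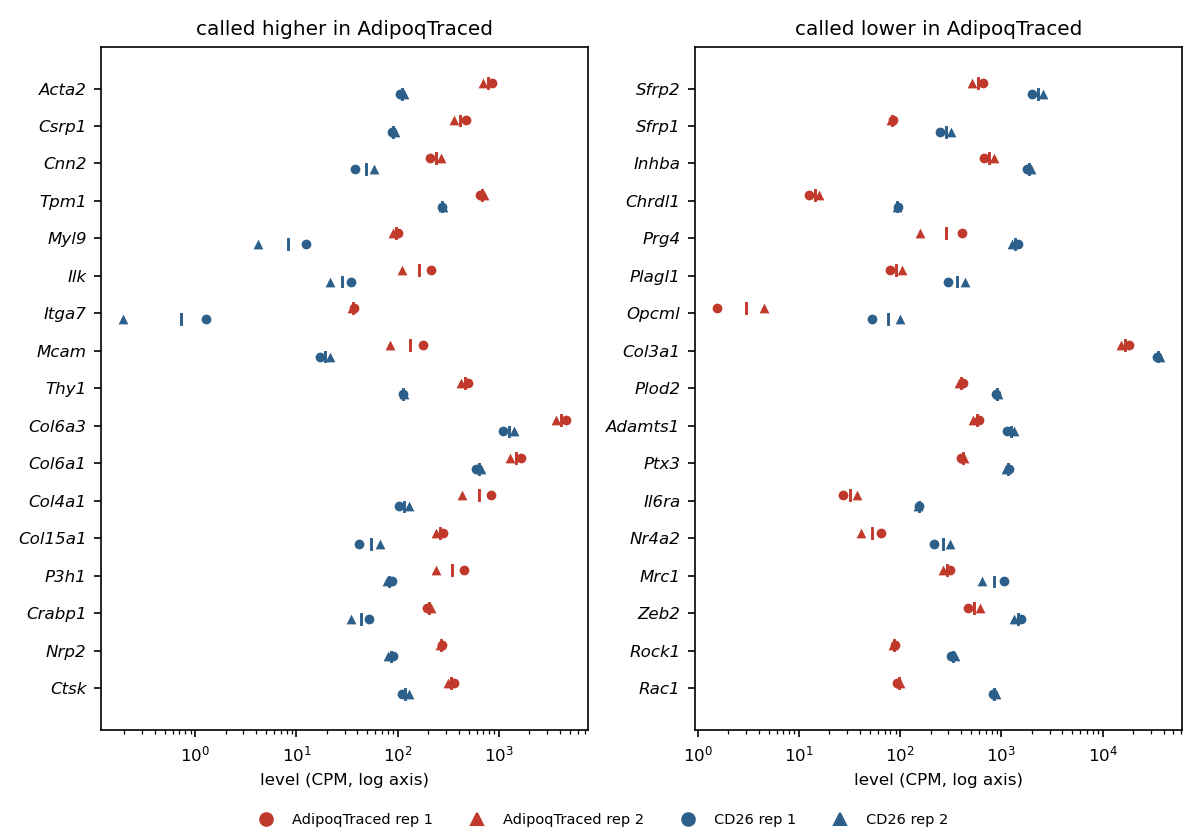
The level of 34 called genes in each library is drawn on a log axis (CPM), with AdipoqTraced in red above CD26 in blue, circles for replicate 1, triangles for replicate 2 and a bar at the group mean. In every row the groups are apart, and the AdipoqTraced replicates differ most in Prg4, Opcml, Mcam, Ilk, Col4a1 and P3h1.

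Collagen genes moved both ways. Col6a3, a chain of the microfibrillar type VI collagen (chromosome 1, 90765923 to 90843971), had 4592 and 3652 CPM in AdipoqTraced, against 1085 and 1414 CPM in CD26, a log2 fold change of 1.72 (SE 0.20, adjusted p = 0.012). Its partner chain Col6a1 had 1632 and 1282 CPM in AdipoqTraced, against 595 and 666 CPM in CD26 (1.21, SE 0.20, adjusted p = 0.0411). The remaining chain of that trimer, Col6a2, had 2224 and 1679 CPM in AdipoqTraced, against 931 and 1037 CPM in CD26, with an adjusted p of 0.0617, and of 0.013 with all 14 libraries. Thus all 3 chains stood above CD26 in both libraries, and 2 were called.

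Col4a1 and Col15a1, which belong to basement membranes, were also higher. Col4a1, a chain of the sheet-forming type IV collagen, had 832 and 429.9 CPM in AdipoqTraced, against 103 and 129 CPM in CD26 (2.45, SE 0.34, adjusted p = 0.0246), and with all 14 libraries its adjusted p was 0.0807. Its partner Col4a2 had 509 and 323 CPM in AdipoqTraced, against 140.1 and 189 CPM in CD26 (adjusted p = 0.0934). Col15a1 had 283 and 238 CPM in AdipoqTraced, against 41.7 and 67.2 CPM in CD26 (2.27, SE 0.34, adjusted p = 0.0332). Col3a1, the fibrillar collagen of early wound matrix (chromosome 1, 45311538 to 45349706), went the other way. It had 18297 and 15245 CPM in AdipoqTraced, against 34161 and 36819 CPM in CD26, a log2 fold change of -1.08 (SE 0.13, adjusted p = 0.0141). Col4a2 and the chains of type I collagen were named after their values were seen, and type I collagen was not called. Col1a1 had 37252 and 26127 CPM in AdipoqTraced, against 39087 and 43992 CPM in CD26 (adjusted p = 0.283). With an offset for GC content and length, however, edgeR called Col1a1 lower (log2 fold change -0.92, adjusted p = 0.0344). Of 33 tested collagen chains 4 were called higher and 1 lower, against 0.294% and 0.347% over all genes, and the median was 0.17. With all 14 libraries 6 of 37 were higher and 3 lower, against 2.32% and 1.46% over all genes. The short RNA Gm47302, annotated inside the Col3a1 exons, was called higher, with 1090.1 and 433 CPM in AdipoqTraced, against 162 and 147 CPM in CD26, and reads of these overlapping genes cannot be told apart without strand.

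Enzymes that modify and cut the matrix showed both directions. P3h1, a prolyl hydroxylase of collagen in the endoplasmic reticulum, had 456 and 238 CPM in AdipoqTraced, against 86.9 and 78.3 CPM in CD26 (log2 fold change 2.07, SE 0.36, adjusted p = 0.0411). Plod2, which hydroxylates the lysines used in collagen cross-links, had 414 and 383 CPM in AdipoqTraced, against 876 and 926 CPM in CD26 (-1.18, SE 0.20, adjusted p = 0.0417). Ctsk, the collagen-degrading protease cathepsin K, had 359.9 and 311 CPM in AdipoqTraced, against 109 and 129 CPM in CD26 (1.5, adjusted p = 0.0485). Adamts1, a protease of proteoglycans, had 607 and 529 CPM in AdipoqTraced, against 1131 and 1333 CPM in CD26 (-1.12, adjusted p = 0.0467), and 0.0535 with all 14 libraries. Prg4, the lubricating proteoglycan lubricin, had 408 and 158 CPM in AdipoqTraced, against 1461 and 1260.2 CPM in CD26. Its log2 fold change of -2.27 (SE 0.37, adjusted p = 0.0411) was -3.14 without AdipoqTraced replicate 1. Collagen processing counted 1 called higher and 1 lower of 31, matrix proteases and their inhibitors 1 and 1 of 44, and proteoglycans 0 and 1 of 31. Over all genes 0.294% were higher and 0.347% lower. The median of collagen processing was 0.51, and 0.21 with an offset for GC content and length. Both AdipoqTraced libraries lay above both CD26 libraries in 16 of its genes and below in 6, against 22.4% and 24.5% of all tested genes. With all 14 libraries 6 of 31 were called higher and 1 lower, against 2.32% and 1.46% over all genes.

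Sfrp1, Sfrp2 and Chrdl1, secreted antagonists of WNT and BMP ligands, were lower in AdipoqTraced. Sfrp2, a frizzled-related protein that binds WNT ligands (chromosome 3, 83766321 to 83774316), had 657 and 512 CPM in AdipoqTraced, against 2013 and 2558 CPM in CD26. The log2 fold change was -1.97 (SE 0.21, adjusted p = 0.00834), and 16.1% of its exons overlap Gm26771. Sfrp1, of the same family, had 85.7 and 81.7 CPM in AdipoqTraced, against 245 and 321 CPM in CD26 (-1.75, SE 0.30, adjusted p = 0.0411). Chrdl1, which binds BMP ligands, had 12.6 and 15.9 CPM in AdipoqTraced, against 94.7 and 92.5 CPM in CD26 (-2.71, SE 0.47, adjusted p = 0.0411). Inhba, the subunit of activin A, a ligand of the TGF-beta superfamily, had 674 and 836 CPM in AdipoqTraced, against 1782 and 1956 CPM in CD26 (-1.31, SE 0.19, adjusted p = 0.0292). Over the whole lists, 0 were higher and 2 lower of 39 WNT genes with a median of -0.09, and 0 were higher and 2 lower of 47 TGF-beta and BMP genes with a median of -0.20. Over all genes 0.294% were higher and 0.347% lower. Scaled over all 14 libraries, Sfrp2 stood at 2589 to 3532 CPM in the 4 AP libraries and at 44.7 and 112 CPM in mature adipocytes.

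Among receptors and markers of dermal position, Nrp2, a co-receptor of semaphorins and VEGF, had 276 and 264 CPM in AdipoqTraced, against 90.1 and 80.8 CPM in CD26 (1.66, SE 0.28, adjusted p = 0.0411). Crabp1, a retinoic acid binding protein listed here with the papillary and hair follicle dermis, had 194 and 213 CPM in AdipoqTraced, against 52.2 and 34.8 CPM in CD26 (2.22, SE 0.35, adjusted p = 0.0362). Plagl1, an imprinted zinc finger factor, had 79.5 and 104 CPM in AdipoqTraced, against 293 and 437 CPM in CD26 (-1.99, SE 0.31, adjusted p = 0.0362). Opcml, an adhesion molecule of neurons listed here with the interstitial progenitor markers, had 1.55 and 4.48 CPM in AdipoqTraced, against 52.7 and 99.2 CPM in CD26. Its log2 fold change of -4.64 (SE 0.74, adjusted p = 0.0362) was -5.60 without AdipoqTraced replicate 2. Zeb2, a repressor of epithelial genes, had 467 and 614 CPM in AdipoqTraced, against 1575 and 1336 CPM in CD26 (-1.43, SE 0.21, adjusted p = 0.033). The list of interstitial progenitor and universal fibroblast markers had Col15a1 higher and Opcml lower of 17 tested, with a median of -0.38. Reticular and hypodermal fibroblast markers had 0 higher and 2 lower of 15, Plagl1 and Prg4, against 0.347% lower over all genes. No Hox gene was called by edgeR, of 14 tested with 4 libraries and 29 with all 14.

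Of 37 genes of interleukins, the TNF family and the acute phase, 0 were called higher and 2 lower, with a median of -0.22. Over all genes 0.294% were higher and 0.347% lower. Ptx3, a soluble pattern receptor of the acute phase, had 403 and 424 CPM in AdipoqTraced, against 1187 and 1120.0 CPM in CD26 (-1.48, SE 0.20, adjusted p = 0.0231). Il6ra, the receptor chain for interleukin 6, had 27.1 and 37.1 CPM in AdipoqTraced, against 152 and 151 CPM in CD26 (-2.24, SE 0.37, adjusted p = 0.0411). Nr4a2, a nuclear receptor and the 1 called of 30 immediate early genes, had 64.4 and 41.4 CPM in AdipoqTraced, against 216 and 309.9 CPM in CD26 (-2.31, adjusted p = 0.036). Mcl1, which holds back apoptosis, had 879 and 1018 CPM in AdipoqTraced, against 2946 and 2859 CPM in CD26 (-1.61, SE 0.17, adjusted p = 0.00834). Of 29 chemokine genes none was called with 4 libraries, and their median was -0.60. Both AdipoqTraced libraries lay below both CD26 libraries in 16 of them, an order that 24.5% of all tested genes showed. With all 14 libraries Ccl7, Cxcl2 and Cxcl3, which draw monocytes and neutrophils, were called lower. Cxcl3 had 41.7 and 33.6 CPM in AdipoqTraced, against 177 and 124 CPM in CD26 (adjusted p = 0.0574 with 4 libraries).

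Several of the called genes are known from immune cells or epidermis. Mrc1, the mannose receptor of macrophages, had 313 and 264 CPM in AdipoqTraced, against 1070.5 and 639 CPM in CD26 (-1.57, SE 0.28, adjusted p = 0.0451), and was the 1 called of 26 macrophage and monocyte markers, whose median was -0.55. Fcgr2b, an inhibitory Fc receptor, had 75.7 and 92.9 CPM in AdipoqTraced, against 403 and 301 CPM in CD26. Clec4e, a lectin receptor of macrophages, had 16.1 and 9.05 CPM in AdipoqTraced, against 139 and 90.6 CPM in CD26. The summed level of the macrophage list was 6846 and 4638 CPM in AdipoqTraced, against 9046 and 6399 CPM in CD26, so the groups overlapped, and none of its members was at 0 in all 4 libraries. Ptprc, the antigen CD45 of blood cells, had 236 and 189 CPM in AdipoqTraced, against 283 and 322 CPM in CD26. The part of these cells in the results was not tested.

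Krt77, an epidermal keratin, had 4.11 and 1.19 CPM in AdipoqTraced, against 42.8 and 197 CPM in CD26. Ly6g6c had 1.28 and 0.548 CPM in AdipoqTraced, against 31.7 and 102 CPM in CD26. The second CD26 library was far above the first in both, and their log2 fold changes of -5.48 and -6.16 ranged from -6.66 to -4.01 for Krt77 and from -6.92 to -5.11 for Ly6g6c when each library was left out in turn, with the smallest size without CD26 replicate 2. The summed keratinocyte list had 1351 and 963 CPM in AdipoqTraced, against 1433 and 3830 CPM in CD26, which puts the second CD26 library apart. None of its 22 tested members was called with the 4 libraries. With an offset for GC content and length on the same 4, edgeR called Sprr1a lower (log2 fold change -4.08, adjusted p = 0.0375). Krt10, Dsg1a and Sprr1a, genes of the differentiated epidermis, were called lower with all 14 libraries, 3 of 23 tested, against 1.46% over all genes. Krt5, a keratin of the basal layer, was at 271 and 165 CPM in AdipoqTraced, against 102 and 157 CPM in CD26. In the mature adipocyte libraries, scaled over all 14, Ly6g6c stood at 59.3 and 156 CPM and Krt77 at 3.31 and 12.2 CPM. How far keratinocyte RNA enters Krt77 and Ly6g6c was not tested.

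Of the vascular lists, pericyte and mural markers had the highest median log2 fold change of the 47 lists, 1.64 over 16 tested members, with Mcam called higher and none lower. With all 14 libraries Cspg4, Pdgfrb and Heyl were called as well. Cspg4, the proteoglycan NG2, had 76.2 and 38.8 CPM in AdipoqTraced, against 6.69 and 6.65 CPM in CD26, and Pdgfrb, which pericytes and fibroblasts share, had 405 and 232 CPM in AdipoqTraced, against 93.8 and 107 CPM in CD26. Rgs5, a defining pericyte marker, had 248 and 155 CPM in AdipoqTraced, against 95.7 and 141 CPM in CD26 (adjusted p = 0.296), Higd1b was at 0 in all 4 libraries, and the list's summed level overlapped, with 1857 and 1268 CPM in AdipoqTraced, against 1431 and 1693 CPM in CD26. Endothelial markers had the lowest median with the 4 libraries, -1.32 over 21 tested genes, with 0 called. Their median was -1.14 with all 14 libraries, where Robo4, a receptor of endothelial cells, was called lower and the mitochondrial genome had the lowest median, -1.34. With an offset for GC content and length, the keratinocyte list was lowest at -1.50. The summed level of the endothelial markers was 142 and 168 CPM in AdipoqTraced, against 282 and 373 CPM in CD26. Skeletal muscle markers were near absent, with 12 of 20 at 0 in all 4 libraries. The part of pericytes and endothelium in the results was not tested.

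**Figure D3:**
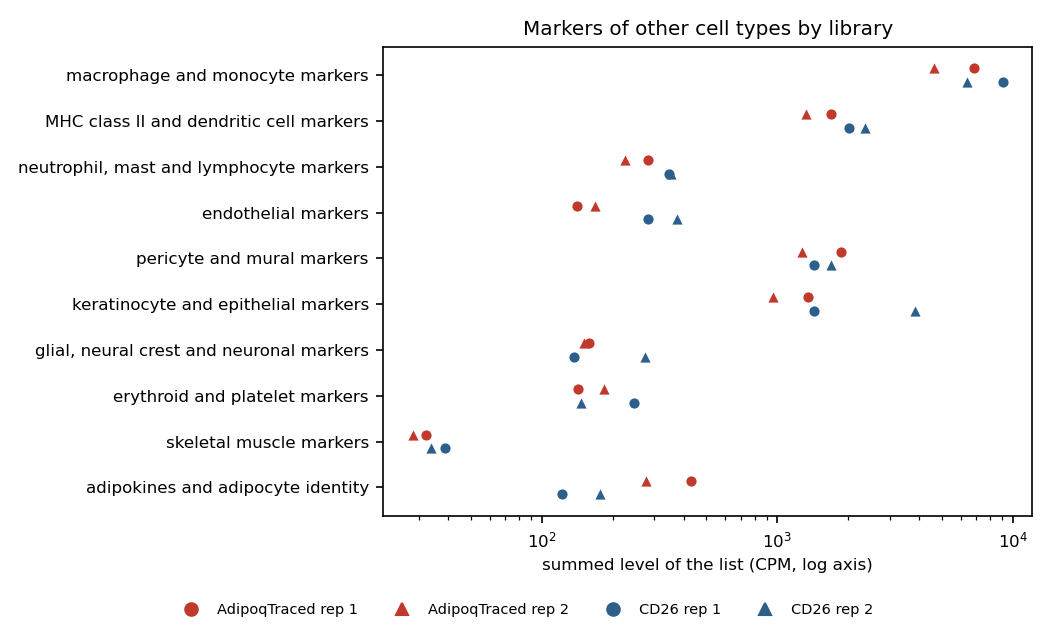
The summed level of each marker list (CPM, log axis) is drawn by library, AdipoqTraced in red above CD26 in blue. Endothelial sums are lower in both AdipoqTraced libraries, macrophage and pericyte sums overlap between the groups, and the second CD26 library stands apart in the keratinocyte list at 3830 CPM.

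Transcripts of the mitochondrial genome were lower in AdipoqTraced, while nuclear genes of the respiratory chain had a positive median. Of 11 tested mitochondrial transcripts 5 were called lower and 0 higher, against 0.347% and 0.294% over all genes, with a median of -1.26. mt-Rnr2, the large ribosomal RNA of mitochondria, had 141899 and 194329.5 CPM in AdipoqTraced, against 322812 and 381056 CPM in CD26 (-1.07, SE 0.14, adjusted p = 0.0237), on the scale of counts outside the mitochondrial genome. mt-Nd5, a subunit of complex I, had 888 and 2033 CPM in AdipoqTraced, against 4953 and 5730.2 CPM in CD26, and its log2 fold change of -1.87 (adjusted p = 0.0411) was -2.59 without AdipoqTraced replicate 2. mt-Nd4 behaved alike, with a log2 fold change of -1.92 that was -2.67 without AdipoqTraced replicate 2, and an adjusted p of 0.0442 that was 0.6 with all 14 libraries. Of 75 nuclear respiratory chain genes none was called with 4 libraries, and 48 stood above CD26 in both AdipoqTraced libraries, as did 22.4% of all tested genes. The median was 0.80, and 0.58 with an offset for GC content and length. With all 14 libraries 17 of 76 were called higher and 1 lower, against 2.32% higher and 1.46% lower over all genes. Among those higher was Cox4i1, a subunit of complex IV, with 105.7 and 105.5 CPM in AdipoqTraced, against 29.0 and 32.1 CPM in CD26.

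Of 76 ribosomal protein genes tested, Rps3 and Rps14 were called higher and none lower. Of the 76, 58 stood above CD26 in both AdipoqTraced libraries, as did 22.4% of all tested genes. The median was 0.71, and 0.35 with an offset for GC content and length. Rps3 had 644 and 591 CPM in AdipoqTraced, against 158 and 151 CPM in CD26 (2.0, SE 0.24, adjusted p = 0.0141). With all 14 libraries 19 were higher and 0 lower, against 2.32% higher and 1.46% lower over all genes. These genes share reads with near-identical pseudogenes, which makes single members uncertain. Eef2, the elongation factor that moves the ribosome, had 1689 and 1173 CPM in AdipoqTraced, against 614 and 631 CPM in CD26 (1.20, SE 0.22, adjusted p = 0.0496). Cell cycle genes had 0 called of 45 and a median of 0.54. With all 14 libraries 4 of 45 were higher and 0 lower, against 2.32% and 1.46% over all genes.

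**Figure D4:**
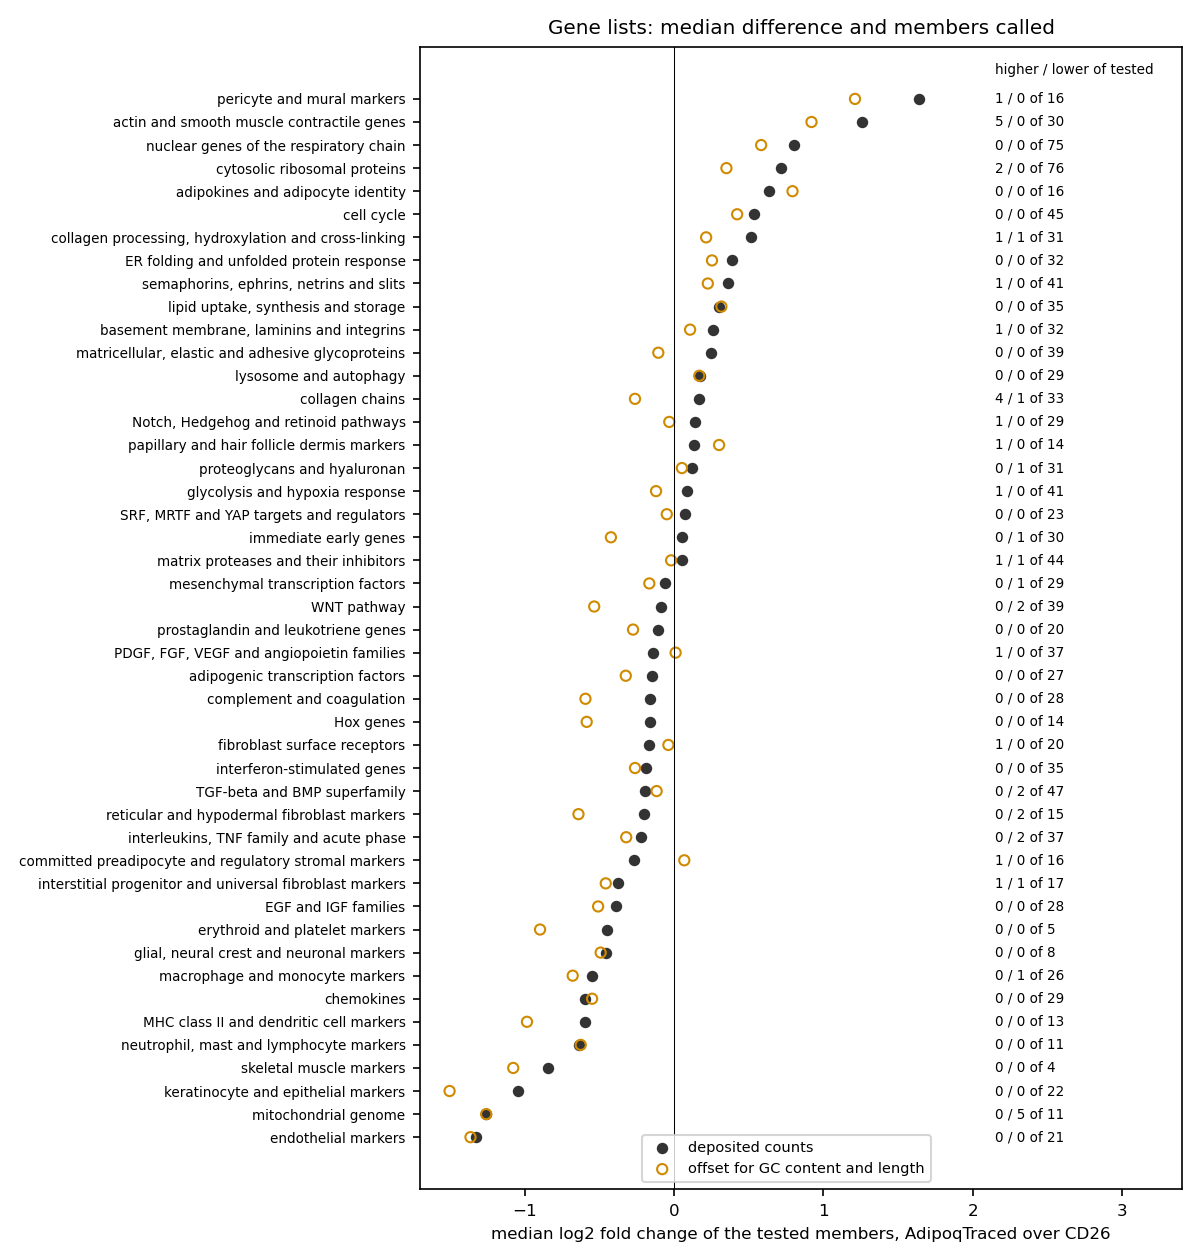
For each gene list shown the filled point gives the median log2 fold change of its tested members, AdipoqTraced over CD26, and the open point the same median after an offset for GC content and length. The offset was not applied to mitochondrial genes, so both points of that list lie at -1.26. Figures at the right are members called higher and lower of those tested, such as 5 and 0 of 30 for the contractile list.

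The noncoding RNAs Gm26917 and Gm42418 gave the smallest p-values of the comparison. Gm26917, annotated as a long noncoding RNA in a stretch of chromosome 17 (39843013 to 39846341) treated here as ribosomal RNA, had 9502 and 6981 CPM in AdipoqTraced, against 369 and 287 CPM in CD26 (4.65, SE 0.22, adjusted p = 3.66e-05). Its neighbour Gm42418, 99.5% of whose exons overlap CT010467.1, had 2845 and 2918 CPM in AdipoqTraced, against 303 and 214 CPM in CD26. Rn7sk, a small nuclear RNA that restrains transcript elongation, had 751 and 222 CPM in AdipoqTraced, against 34.7 and 30.5 CPM in CD26, and its log2 fold change of 3.90 was 2.74 without AdipoqTraced replicate 1 and 4.52 without AdipoqTraced replicate 2. Gm26917 and Gm42418 are counted in the share of nuclear ribosomal RNA given above, which, like Rn7sk, was highest in AdipoqTraced replicate 1. Without the ribosomal RNA genes in the scaling, 103 genes were called, with all 96 among them.

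The levels of a few protein-coding genes differed widely among the populations. Mlf2 had 88.1 and 75.1 CPM in AdipoqTraced, against 2.20 and 2.35 CPM in CD26 (5.16, SE 0.65, adjusted p = 0.0141). In the other 5 populations Mlf2 lay between 79.3 and 360.4 CPM, so the CD26 libraries were the low ones. Sar1a, a GTPase of vesicle budding at the endoplasmic reticulum, had 450.4 and 398 CPM in AdipoqTraced, against 36.2 and 21.9 CPM in CD26 (3.86, SE 0.34, adjusted p = 0.00219), and the other 10 libraries lay between 55.6 and 659 CPM. As for Rac1, whether reads of Mlf2 and Sar1a were assigned to the right gene in each population cannot be checked from counts per gene, so these values are uncertain. For Thy1 the AdipoqTraced libraries were the high ones, with 8.95 to 57.7 CPM in the 10 libraries outside the comparison.

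Differences also followed the base composition and length of transcripts. Over 12665 protein-coding nuclear genes, Spearman's rank correlation between log2 fold change and GC content was 0.3014, and with exonic length -0.1542, across genes that share the same libraries. The median log2 fold change was 0.57 in the fifth of genes with the highest GC content, against -0.42 in the fifth with the lowest. Of the called protein-coding genes, 20 higher and 2 lower were among those with the highest GC content, and 0 higher and 20 lower among those with the lowest. After an offset for GC content and length, chosen after the data were seen, 67 genes were called, 18 higher and 49 lower, and 50 of them were among the 96. The offset was not applied to genes of the mitochondrial genome, of which 5 are counted among those lower. The contractile list then had 3 called higher, Acta2 (log2 fold change 2.54, adjusted p = 0.00262), Csrp1 (1.63, adjusted p = 0.0382) and Tpm1 (1.31, adjusted p = 0.0447), and its median was 0.92. Collagens then had 2 higher and 2 lower and a median of -0.26, and those lower were Col3a1 and Col1a1, which had not been called without the offset. The calls of Myl9 (adjusted p = 0.076), Cnn2 (0.0712), Itga7 (0.0641), Crabp1 (0.151), Inhba (0.0746) and Rock1 (0.0746) were lost with the offset. Also lost, with adjusted p between 0.0517 and 0.249, were those of Ilk, Mcam, Tubb5, Tmsb10, Col6a1, Col15a1, P3h1, Plod2, Ctsk, Chrdl1, Zeb2, Clec4e, Mrc1, Rps14 and Eef2. The log2 fold change with the offset was 2.73 for Myl9, 1.41 for Crabp1, 1.31 for Tmsb10 and 2.64 for Rps14, a fold more than 1.5 times smaller, and likewise 3.46 for Gm26917, 2.62 for Gm42418 and 2.96 for Rn7sk, which were still called. The calls of Sfrp2 (-2.43, adjusted p = 0.00109), Col6a3, Col3a1, Thy1, Nrp2, Rac1 and Ptx3 were among those kept.

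**Figure D5:**
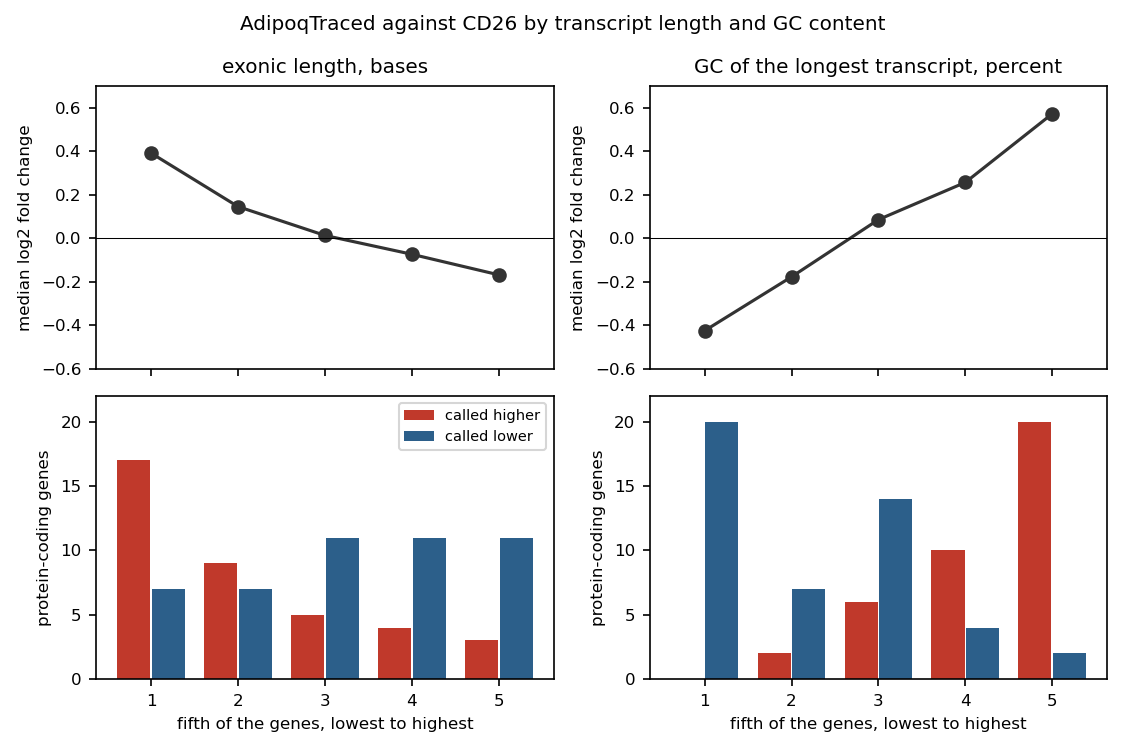
Protein-coding genes are split into 5 bins of equal size by exonic length (left) and GC content (right), lowest to highest. The upper panels give the median log2 fold change of AdipoqTraced over CD26, from -0.42 to 0.57 across the bins of GC content, and the lower panels the number of genes called higher (red) and lower (blue).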

How the data were processed

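Deposited whole-number counts per gene were used as the authors made them; whether they are counted reads or rounded estimates is not given in the sources used here. Per the submitters' processing notes, CASAVA 1.8.2, HISAT2 2.1, StringTie 1.3.3b, DESeq2 and mm10 were used, with no role stated. Per the labels' protocols, RNA came from a kit for small samples and complementary DNA from the SMARTer Ultra Low RNA kit. No source used here gives the annotation or the strand setting. Of 52636 identifiers, 52489 matched GENCODE M21 after removal of versions. The table held 0 columns of other samples.

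Genes were kept by filterByExpr, scaled by TMM over genes outside the mitochondrial genome, and tested with edgeR 4.0.16 in R 4.3.3 (glmQLFit, robust = TRUE, legacy = FALSE, two-sided) on the 4 libraries with the group as the term. P-values were adjusted by Benjamini-Hochberg over all genes tested, and SE is the log2 fold change over the square root of F. The procedure was tested on simulated counts with levels and spread taken from these 4 libraries. It called 13 of 91 genes changed 4-fold (14.3%) and 54 of 86 changed 16-fold (62.8%), with 0 false calls among 67.

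The comparison and the 47 gene lists were chosen with earlier results of these data known. Genes were named by a rule: the sort genes, the 15 largest rises and falls with 10 CPM in a group, up to 4 called members of each list, and up to 3 more called only with all 14 libraries, or the 2 most abundant where a list had none. Not every gene so named is printed. Lists with no sentence of their own are given by median and counts in the plot of gene lists, and 1 list is not reported here. Genes such as Mcl1, Tubb5, Tmsb10, Eef2, Marcks, Fcgr2b, Tpm1, Col6a1, Ptprc, Krt5, Rgs5 and those of the closing observations were added, as were the Myl9 and Cnn2 promoters, after their values were seen. Alternatives were DESeq2 1.42.0, other scalings and filters, other sets of libraries, a replicate block and an offset for GC content and length.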

Additional observations from a re-analysis of the deposited data

How the results depend on the processing

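The 96 calls became 705 with all 14 libraries, 856 with DESeq2, 29 without a filter on low counts, 5 with the older form of the quasi-likelihood fit (legacy = TRUE) and 11 against a fold of 1.5. Deviations from the group means correlated at -0.0271 between libraries of the same replicate number. That single value cannot show whether the samples were paired. With a replicate block 0 genes were called in edgeR, with 1968 at an unadjusted p under 0.05. Leaving out each library gave 0 to 19 calls, with 7 and 14 of the 96 kept without AdipoqTraced replicate 1 and 2. Leaving out a library takes away a residual degree of freedom, and other causes were not tested. Other scalings gave 87 to 103 calls, and the 6 libraries of the same deposit gave 64. Higher against lower calls were 44 to 52, and 54 to 43 with library size alone, 35 to 52 with RLE size factors and 18 to 49 with the offset for GC content and length. Without 1 library the fold moved by over 1.5 times in 24 of the 96. With 2 residual degrees of freedom, the 4-library fit limits which differences could be called, large ones included. In the simulated counts it called 14.3% of genes changed 4-fold and 62.8% of those changed 16-fold. A gene or list without a call is therefore not shown to be alike in the groups. Cd9, near 0 at -0.09, was -0.31 without CD26 replicate 1 and 0.14 without CD26 replicate 2, and Ptprc turned from -0.51 to 0.042 with the offset.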

Other observations

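Several called genes belong to no pathway described above. Lgals1, the secreted lectin galectin-1, had 579 and 456 CPM in AdipoqTraced, against 139.9 and 147 CPM in CD26 (log2 fold change 1.85, SE 0.25, adjusted p = 0.0237 in edgeR). Cd63, a tetraspanin of late endosomes, had 714 and 649 CPM in AdipoqTraced, against 263 and 300.4 CPM in CD26 (1.27, SE 0.22, adjusted p = 0.0425). Bsg, the surface glycoprotein basigin, had 701 and 346 CPM in AdipoqTraced, against 133 and 126 CPM in CD26, and its log2 fold change of 2.01 was 1.39 without AdipoqTraced replicate 1. Kdelr1, which returns proteins to the endoplasmic reticulum, was higher, with a log2 fold change of 2.53 that was 1.84 without AdipoqTraced replicate 2, whereas Arf4, a GTPase of the Golgi, and Snap23, which fuses vesicles with the cell surface, were lower, with log2 fold changes of -1.10 and -1.36. With the offset for GC content and length the calls of Lgals1, Cd63, Bsg, Kdelr1, Arf4 and Snap23 were lost, and the log2 fold changes of Lgals1 and Bsg were 1.17 and 1.25.

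Among the genes called lower, Cat, the peroxisomal enzyme catalase, had 104 and 65.4 CPM in AdipoqTraced, against 298 and 301 CPM in CD26 (-1.82, SE 0.31, adjusted p = 0.0411). Tpp1, a lysosomal peptidase, had 87.7 and 117 CPM in AdipoqTraced, against 342 and 351 CPM in CD26 (-1.76, adjusted p = 0.0376). Serpinb2, an inhibitor of plasminogen activators, had 263 and 216 CPM in AdipoqTraced, against 864 and 861 CPM in CD26 (-1.85, SE 0.22, adjusted p = 0.0141), a call that was lost with the offset (adjusted p = 0.0691). Pappa2, a protease of IGF binding proteins, had 5.66 and 9.96 CPM in AdipoqTraced, against 72.9 and 185 CPM in CD26, and its log2 fold change of -4.04 was -3.23 without CD26 replicate 2. Pmp22, a membrane protein known from myelin, had 233 and 93.1 CPM in AdipoqTraced, against 721 and 710.1 CPM in CD26, and its log2 fold change of -2.13 was -2.97 without AdipoqTraced replicate 1.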
